A study of Mus musculus with 8 samples.

Results

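The genes described are 9 dual-specificity MAP kinase phosphatases (Dusp1, Dusp2, Dusp4, Dusp5, Dusp6, Dusp7, Dusp8, Dusp10 and Dusp16) and Ptpn7, a tyrosine phosphatase of leukocytes that also acts on MAP kinases. Every noncontrol probe whose gene name in the scanner files is one of these 10 symbols was taken, which gave 12 probes of the 55681 on the array, for 10 of 36492 gene or transcript names. Dusp16 and Ptpn7 have 2 probes each, and the other 8 genes have 1. The values come from carotid arteries taken 14 days after wire injury, a procedure that removes the endothelial lining and leads to neointima growth. The 4 miR-126-/- mice and the 4 miR-126+/+ mice were all ApoE-/-, female, 6 weeks old and of mixed genetic background, and all were fed a western-type diet. Each mouse gave 1 array. How the miR-126 allele was disrupted, and in which cells, is not given in the sources used here. All mice lacked apolipoprotein E, so no artery with normal lipid transport was compared.

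MAP kinases (ERK, JNK and p38) are switched on when a kinase phosphorylates a threonine and a tyrosine in their activation loop. Dual-specificity phosphatases remove both phosphates, and most are transcribed in response to the signalling they end, so that their transcripts are part of a negative feedback. Dusp1, Dusp2, Dusp4 and Dusp5 act in the nucleus, Dusp6 and Dusp7 act on ERK in the cytoplasm, and Dusp8, Dusp10 and Dusp16 prefer JNK and p38. Ptpn7 binds ERK and p38 through a kinase interaction motif and removes only the tyrosine phosphate. In arteries, these pathways carry growth factor and stress signals to smooth muscle cells, endothelial cells and infiltrating leukocytes.

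The microRNA that separates the genotypes is shown with its seed (bases 2 to 8) in capitals, as the mature 3p strand in RefSeq (GRCm38.p6, chr2:26591402-26591423, plus strand). The 5p strand is named miR-126a-5p.
miR-126a-3p: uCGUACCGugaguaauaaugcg

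Sequences just upstream of 3 members are shown because they hold motifs through which immediate early transcription is known to run, and because the members' values are later set against immediate early genes. Promoters (the 250 bases before the gene's start, RefSeq, GRCm38.p6) were matched by symbol for 9 of the 10 genes. Dusp4 is named only. Both strands were searched. Capitals mark the full cyclic AMP response element TGACGTCA in Dusp1 (chr17:26508473-26508722, minus strand) and Dusp8 (chr7:142095285-142095534, minus strand), and the CArG box, the site of serum response factor, in Dusp5 (chr19:53528895-53529144, plus strand).
Dusp1: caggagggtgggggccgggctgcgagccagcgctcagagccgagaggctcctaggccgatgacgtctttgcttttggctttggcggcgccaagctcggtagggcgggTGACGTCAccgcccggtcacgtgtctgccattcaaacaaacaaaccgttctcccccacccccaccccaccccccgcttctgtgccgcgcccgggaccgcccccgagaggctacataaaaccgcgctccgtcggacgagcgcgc
Dusp8: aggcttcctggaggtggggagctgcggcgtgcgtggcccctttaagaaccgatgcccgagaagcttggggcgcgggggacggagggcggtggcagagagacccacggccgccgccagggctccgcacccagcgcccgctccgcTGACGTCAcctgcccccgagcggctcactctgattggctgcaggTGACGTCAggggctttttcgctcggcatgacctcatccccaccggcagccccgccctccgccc
Dusp5: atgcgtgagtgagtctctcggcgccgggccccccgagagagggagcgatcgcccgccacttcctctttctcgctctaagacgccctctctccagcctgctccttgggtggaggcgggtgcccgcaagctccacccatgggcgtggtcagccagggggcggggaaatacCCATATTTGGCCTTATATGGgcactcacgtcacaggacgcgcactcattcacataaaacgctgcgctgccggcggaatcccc

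The full response element occurred once in the Dusp1 window, 143 bases before the start, and at 2 places in the Dusp8 window, the nearer of them 63 bases before the start. It was present in 1.55% of 32851 promoter windows of this length. The Dusp5 window held 2 adjoining CArG boxes, which begin 82 and 72 bases before the start, and 1.47% of all windows held at least 1. The shorter GC box GGGCGG lay in the windows of 7 members and in 32.7% of all windows. These matches describe letters in a window and not bound sites.

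Signals are given as log2 of processed signal over the array's 75th percentile, so that 0 marks the brightness that 75% of spots do not exceed. On each array 55.9% to 61.5% of probes stood well above background, and the 75th percentile lay between 619.7 and 864.6 intensity units. No level of miR-126 was measured here, so the genotype labels were not checked against the deleted sequence. All 8 arrays lay on 1 slide, miR-126-/- in slide row 2 and miR-126+/+ in slide row 1, and the effect of the row cannot be told apart from that of the genotype. A spatial trend measure given by the scanner software was 2.35 to 3.04 for miR-126-/- and 2.05 to 2.25 for miR-126+/+. All 16 smooth muscle markers looked for were well above background on all 8 arrays, and so were 18 of 18 endothelial markers. Of the endothelial markers 17 had a difference above 0, with a median of 0.23, and 5 had an unadjusted p under 0.05, all higher in miR-126-/- (6.29% of all genes did so). One of these 5 was Egfl7, the host gene of miR-126, at 0.48 ± 0.13 (SE, limma adjusted p = 0.272). Whether the disrupted allele itself alters Egfl7 was not tested. The ranges that follow are for the whole endothelial list, Egfl7 included. Their summed level was 175 to 227 times the 75th percentile for miR-126-/- and 144 to 177 for miR-126+/+. Of the smooth muscle markers 12 had a difference above 0, with a median of 0.12, and their summed level was 362 to 586 for miR-126-/- and 393 to 460 for miR-126+/+. Among the 4 below 0, Synpo2 had -4.50 and Mylk -2.89 on the fourth miR-126-/- array. On the other arrays they had 1.90 to 3.21 and 0.25 to 1.03. An area of that array was dim, as described below, and the position of these spots is not given here. The part of these markers in the members' values was not tested. All 22 adipocyte markers had a difference above 0, with a median of 1.32 log2 units, and their summed level ran from 770 to 1344 times the 75th percentile in miR-126-/- arteries and from 342 to 782 in miR-126+/+ arteries. In tissue samples of this kind, fewer cells of a type and less RNA per cell cannot be told apart.

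Across the 12 probes the genotypes differed little. No member probe passed the adjusted threshold of 0.05 in limma, in a comparison in which 13 of 32494 probes (0.04%) passed it over the whole array. That count over the array ranged from 0 to 52 when each array was left out in turn. One member probe, the main probe of Ptpn7, had an unadjusted p under 0.05 (3.96% of all probes did so in the lower direction, and 9.88% in either), and the same probe was the only one of the 12 without overlap of the genotypes (2.58% of all probes did so in the lower direction, and 6.05% in either). A count of 1 in 12 is thus near the share over all probes. Differences are given as miR-126-/- minus miR-126+/+. They were above 0 for 5 probes and below 0 for 7, with a median of -0.054, against a median of -0.0065 and 48.6% above 0 over all 32494 probes. Apart from the main probe of Ptpn7 and the probe of Dusp4, the differences lay between -0.22 and 0.30. No member spot was saturated or marked as an outlier, and 11 of the 12 exceeded background clearly on all 8 arrays.

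**Figure D1:**
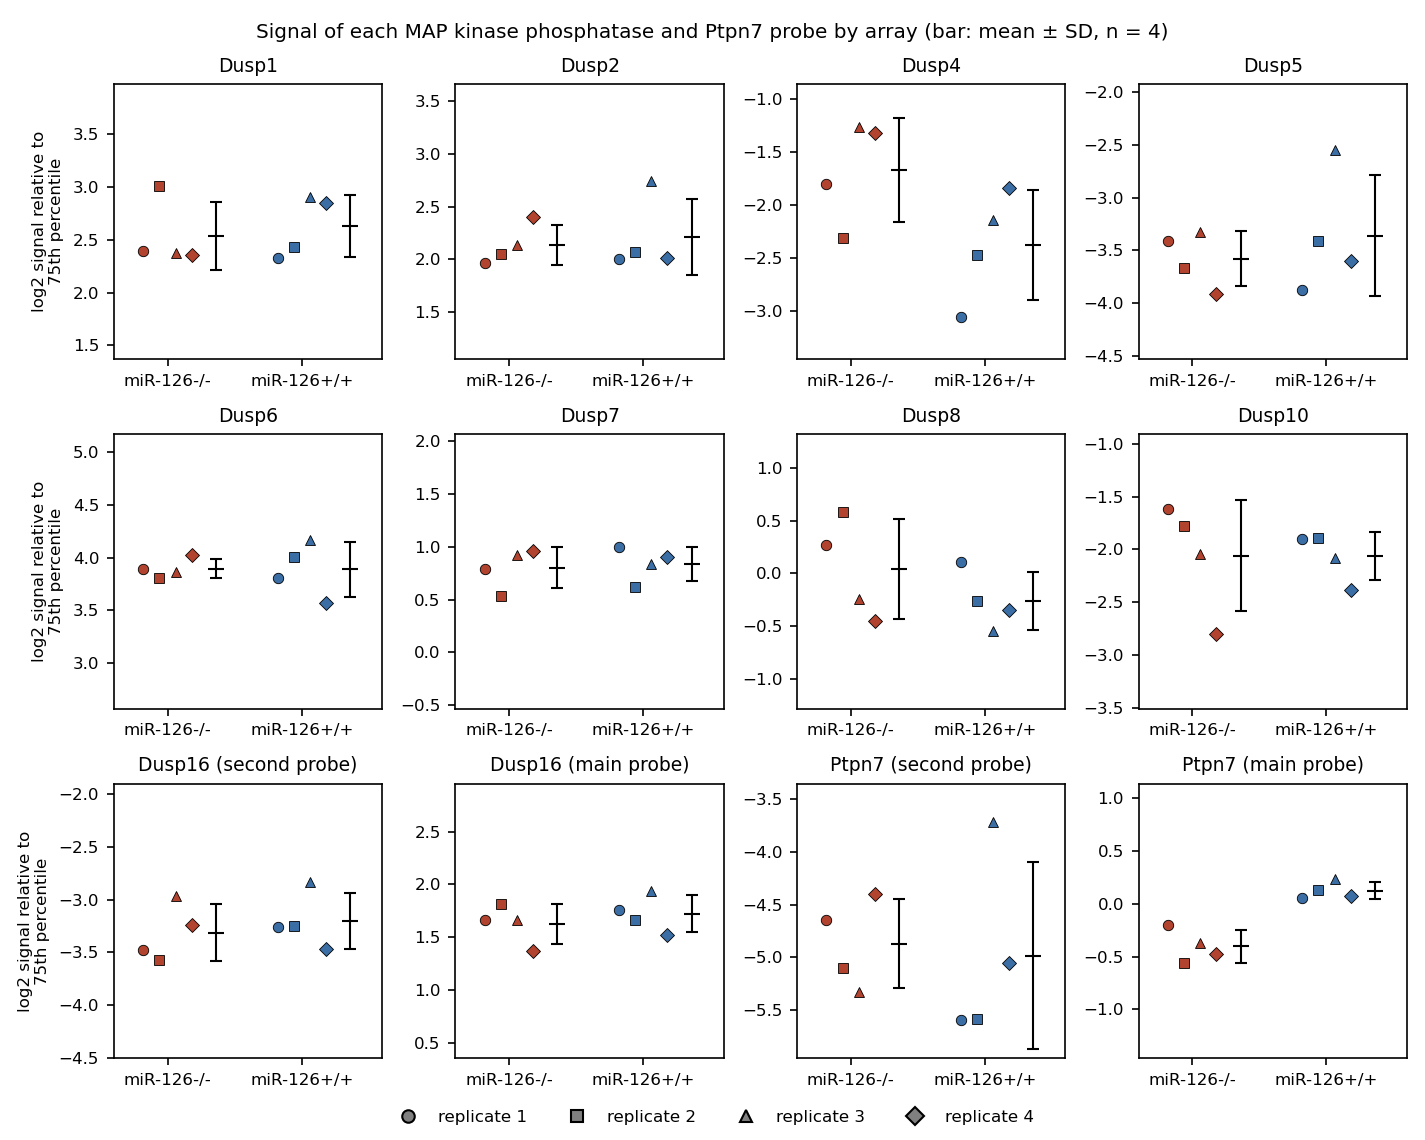
Log2 signal over the array's 75th percentile for each of the 12 probes, with 1 point per array (red, miR-126-/-, blue, miR-126+/+) and bars for the mean ± SD of 4 arrays. Every panel spans the same number of log2 units around its own middle. The points of the genotypes mix in 11 panels and separate in the panel of the Ptpn7 main probe.

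Ptpn7 is known as the haematopoietic tyrosine phosphatase and is expressed mainly in lymphocytes and other leukocytes. Its brighter probe (chr1:137041106-137041165, mm9, at base 2472 of the transcript in the array's annotation) gave -0.20, -0.56, -0.37 and -0.48 in the 4 miR-126-/- arteries, against 0.06, 0.13, 0.23 and 0.07 in the 4 miR-126+/+ arteries. All 4 miR-126-/- values lay below all 4 miR-126+/+ values. Mean log2 signals were -0.40 ± 0.16 for miR-126-/- and 0.12 ± 0.081 for miR-126+/+ (SD, n = 4 each). The difference was -0.52 ± 0.10 (SE), which is 1.44-fold lower with a 95% interval of 1.22 to 1.70, unadjusted. It was 183rd by p among the 32494 probes and did not pass the adjustment (limma adjusted p = 0.168). Before scaling, the processed signal of this probe was 483 to 735 intensity units for miR-126-/- and 729 to 908 for miR-126+/+, and there the ranges met, since the first miR-126-/- array (735) lay just above the third miR-126+/+ array (729).

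The second Ptpn7 probe lies further 5′, at base 767 of the transcript (chr1:137034388-137034447, mm9). Its sequence, in which 2 of 3 reading frames have no stop codon, is shown because this is the probe set against the brighter one.
Ptpn7, second probe: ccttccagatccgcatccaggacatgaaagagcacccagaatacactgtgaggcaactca

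This probe gave -4.65, -5.10, -5.33 and -4.40 in miR-126-/- arteries and -5.60, -5.58, -3.71 and -5.05 in miR-126+/+ arteries. The scanner software marked it as well above background in 3 of 4 miR-126-/- and 2 of 4 miR-126+/+ arteries. It thus entered the test only through its level in miR-126-/- arteries. Before scaling, its processed signal was 14.9 to 47.2 intensity units. The groups overlapped, and the third miR-126+/+ array was higher than every other array. The difference was 0.11 ± 0.43 (SE), with limma adjusted p = 0.954 and an interval from -0.88 to 1.11. The test of whether the probes differ in their genotype difference gave -0.64 log2 units for the main probe relative to the second, with an exact permutation p = 0.171 (two-sided, adjusted p = 0.343 over the 2 genes with 2 probes, smallest possible p 0.0286). Over the 8 arrays the probes correlated with r = 0.0688. With 1 probe this dim, neither the test nor r can decide whether the probes differ. With both probes averaged into 1 value, the gene's difference was -0.20 (limma adjusted p = 0.830). That average gives the dim probe the same weight as the brighter one.

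Leukocyte markers are given beside Ptpn7 because its transcript is largely theirs. All 14 pan-leukocyte markers had a difference below 0, with a median of -0.11, and none had an unadjusted p under 0.05. Of all genes tested, 48.9% had a difference above 0. The list mean was 0.34 on the third miR-126+/+ array and -0.039 to -0.027 on the other miR-126+/+ arrays. On the miR-126-/- arrays it was -0.24 to 0.095. Differences of single markers ran from -0.34 (Cd53) to -0.0027 (Coro1a). Their summed level ran from 174 to 222 in miR-126-/- arteries and from 197 to 244 in miR-126+/+ arteries, so these ranges overlapped where those of the main Ptpn7 probe did not. Ptprc, the common leukocyte antigen CD45, differed by -0.20 ± 0.18 (SE, limma adjusted p = 0.780). Of 24 lymphocyte markers tested, 18 had a difference above 0, with a median of 0.43, and 4 had an unadjusted p under 0.05, all higher in miR-126-/- (6.29% of all genes did so in that direction). Their summed level ran from 31.9 to 72.8 in miR-126-/- arteries and from 26.0 to 53.1 in miR-126+/+ arteries, and the fourth miR-126-/- array was highest. Cd3e, a subunit of the T cell receptor complex, had 0.68, 1.03, 1.01 and 1.91 in miR-126-/- arteries and 0.10, 0.17, 1.33 and 0.30 in miR-126+/+ arteries. The pan-leukocyte markers had the same direction as the main Ptpn7 probe and most lymphocyte markers the opposite. The ranges of both lists overlapped. Of 19 macrophage markers tested, 7 were above 0 and 12 below, with a median of -0.047. The part of leukocyte content in the Ptpn7 values was not tested.

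**Figure D2:**
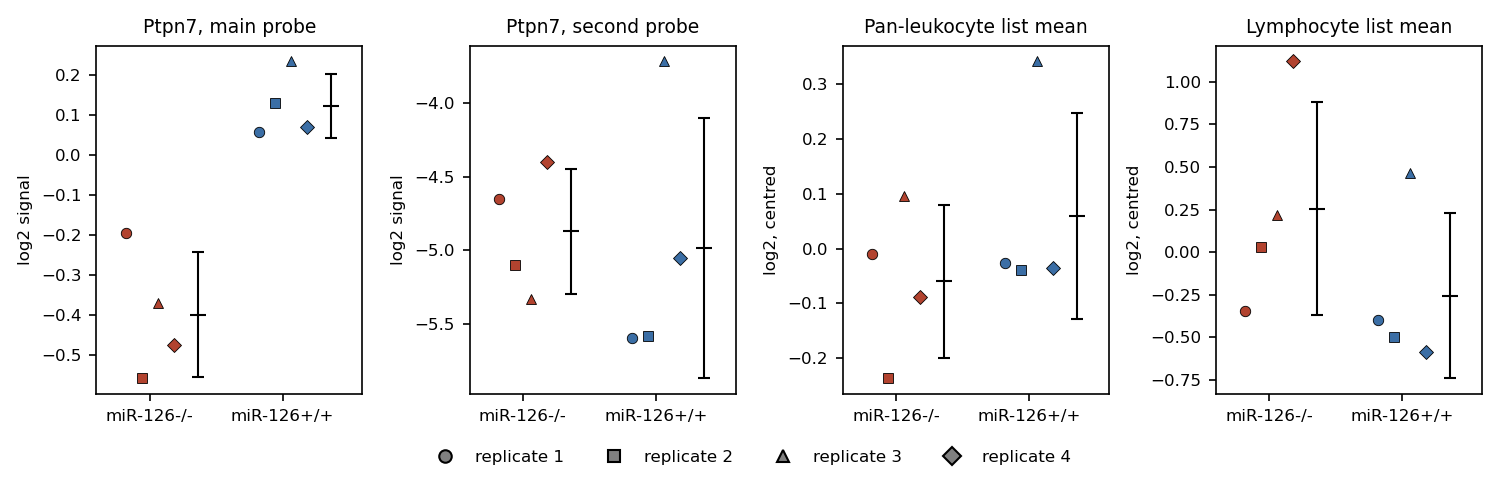
Log2 signal of the main and the second Ptpn7 probe, and the mean of the pan-leukocyte and lymphocyte marker lists (each gene centred over the 8 arrays), by array (red, miR-126-/-, blue, miR-126+/+) with the mean ± SD of 4 arrays. The main probe separates the genotypes, from -0.56 to -0.20 against 0.06 to 0.23, and the other panels overlap.

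Among 15069 genes with a symbol, those whose brightest probe varied most like the main Ptpn7 probe over the 8 arrays included Mycbp2 (r = 0.980) and Olfml3 (r = 0.976). The genotype difference is part of these correlations. In both genes the 4 miR-126-/- values also lay below the 4 miR-126+/+ values. Mycbp2 encodes a ubiquitin ligase and differed by -0.12 ± 0.071 (SE). Olfml3 differed by -0.45 ± 0.11 (SE), 1.36-fold lower, with limma adjusted p = 0.261. In total, 48 genes correlated above 0.9 with Ptpn7.

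The nuclear phosphatases come next. Dusp1 is an immediate early gene whose product acts on p38, JNK and ERK, and its probe (listed at chr17:26642526-26642536, mm9) gave 2.39, 3.01, 2.37 and 2.36 in miR-126-/- arteries and 2.33, 2.43, 2.91 and 2.84 in miR-126+/+ arteries. The position listed for this probe spans 11 bases, where those of the other member probes span 60. In each genotype some arteries lay near 2.4 and others near 2.9, namely 1 of 4 miR-126-/- arteries and 2 of 4 miR-126+/+ arteries at the higher level. The difference was -0.096 ± 0.20 (SE) with an interval from -0.56 to 0.37 (limma adjusted p = 0.916). Without the second miR-126-/- array it was -0.26.

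Dusp2, an inducible phosphatase best known from activated lymphocytes and myeloid cells, had 1.97, 2.05, 2.14 and 2.40 in miR-126-/- arteries and 2.01, 2.07, 2.75 and 2.02 in miR-126+/+ arteries (chr2:127163930-127163989, mm9). The third miR-126+/+ array stood above the other 7. The difference was -0.070 ± 0.19 (SE, limma adjusted p = 0.936), and without that array it was 0.11, the opposite direction.

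Dusp4, which acts on ERK and JNK in the nucleus, had the largest positive difference of the 12 probes. Its probe (chr8:35882045-35882104, mm9) gave -1.80, -2.31, -1.26 and -1.31 in miR-126-/- arteries and -3.06, -2.47, -2.14 and -1.84 in miR-126+/+ arteries. The third and the fourth miR-126-/- arrays were highest and the first miR-126+/+ array lowest, and the groups overlapped because the second miR-126-/- array lay below the third and the fourth miR-126+/+ arrays. Mean log2 signals were -1.67 ± 0.49 for miR-126-/- and -2.38 ± 0.52 for miR-126+/+ (SD, n = 4 each). The difference of 0.71 ± 0.32 (SE), or 1.63-fold, did not pass (limma adjusted p = 0.523), and its interval ran from -0.026 to 1.44. The summed adipocyte markers were 770, 1006, 1124 and 1344 on the miR-126-/- arrays, and 374, 509, 342 and 782 on the miR-126+/+ arrays. They were likewise highest on the third and the fourth miR-126-/- arrays. The second miR-126-/- array, lowest of its genotype in Dusp4, had more of them than the first and than every miR-126+/+ array. The part of these markers in the Dusp4 values was not tested.

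Dusp5, a nuclear phosphatase selective for ERK, had -3.41, -3.67, -3.33 and -3.91 in miR-126-/- arteries and -3.87, -3.41, -2.55 and -3.60 in miR-126+/+ arteries (chr19:53615682-53615741, mm9). Again the third miR-126+/+ array was highest, and the groups overlapped. The difference was -0.22 ± 0.28 (SE, limma adjusted p = 0.847), and without that array it was 0.050.

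The cytoplasmic ERK phosphatases overlapped between the genotypes. Dusp6, a feedback inhibitor that ERK signalling itself induces, had 3.89, 3.81, 3.86 and 4.02 in miR-126-/- arteries and 3.81, 4.01, 4.17 and 3.57 in miR-126+/+ arteries (chr10:98729985-98730044, mm9). Mean log2 signals were 3.90 ± 0.090 for miR-126-/- and 3.89 ± 0.26 for miR-126+/+ (SD, n = 4 each), and the miR-126-/- values all fell within the miR-126+/+ range. The difference was 0.0061 ± 0.14 (SE, limma adjusted p = 0.993), and its interval, -0.31 to 0.32, reaches 1.25-fold at its upper end.

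Dusp7, its close relative, had 0.79, 0.53, 0.92 and 0.96 in miR-126-/- arteries and 1.0, 0.62, 0.84 and 0.90 in miR-126+/+ arteries (chr9:106277985-106278044, mm9). The second array of each genotype was lowest, and the groups overlapped over nearly their whole range. The difference was -0.038 ± 0.13 (SE, limma adjusted p = 0.949), with an interval from -0.34 to 0.26.

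The phosphatases that prefer JNK and p38 did not separate the genotypes either. Dusp8 had 0.27, 0.58, -0.25 and -0.45 in miR-126-/- arteries and 0.11, -0.26, -0.55 and -0.35 in miR-126+/+ arteries (chr7:149267534-149267593, mm9). The first and second miR-126-/- arrays were highest, and the third and the fourth lay among the miR-126+/+ values. The difference was 0.30 ± 0.25 (SE, limma adjusted p = 0.758), and without the second miR-126-/- array it was 0.12.

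Dusp10, which restrains JNK and p38 in immune cells, had -1.61, -1.77, -2.05 and -2.80 in miR-126-/- arteries and -1.90, -1.89, -2.08 and -2.38 in miR-126+/+ arteries (chr1:185898608-185898667, mm9). The fourth array of each genotype was lowest. The difference was 0.0050 ± 0.26 (SE, limma adjusted p = 0.997), with an interval from -0.59 to 0.60, which reaches 1.52-fold.

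Dusp16, a phosphatase of JNK, was measured by 2 probes. The brighter (chr6:134665783-134665842, mm9) gave 1.66, 1.81, 1.66 and 1.37 in miR-126-/- arteries and 1.76, 1.66, 1.94 and 1.52 in miR-126+/+ arteries. The second (chr6:134668003-134668062, mm9) gave -3.47, -3.57, -2.97 and -3.24 in miR-126-/- arteries and -3.26, -3.25, -2.83 and -3.47 in miR-126+/+ arteries. In both probes the third miR-126+/+ array was highest and the groups overlapped. The differences were -0.095 ± 0.13 (SE, limma adjusted p = 0.862) and -0.11 ± 0.18 (SE, limma adjusted p = 0.886). Between the probes these differed by 0.015 log2 units (exact permutation p = 0.943, two-sided).

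**Figure D3:**
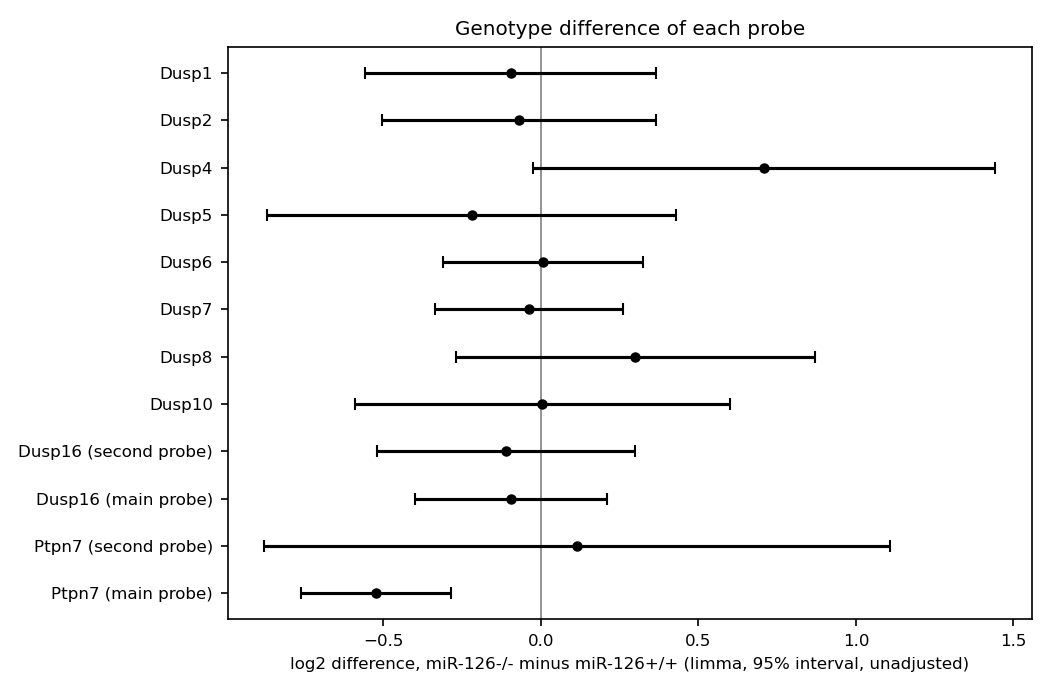
Difference of each probe between miR-126-/- and miR-126+/+ arteries in log2 units, as the limma estimate with its unadjusted 95% interval. The interval of the Ptpn7 main probe, -0.76 to -0.29, lies below 0, that of Dusp4 reaches from -0.026 to 1.44, and the other 10 lie across 0.

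Among arrays the members varied more than a typical probe, with a median pooled SD of 0.296 log2 units against 0.227 over all probes. Of the 12 probes, 7 were highest on the third miR-126+/+ array, for 5 genes (Dusp2, Dusp5, Dusp6, Dusp16 and Ptpn7), whereas 26.6% of all probes tested were highest there. That array had the lowest 75th percentile (619.7), so the scaling raised its values most, those of the gene lists included. Before scaling, Dusp2, Dusp5 and the second Ptpn7 probe were still highest there. Dusp6, both Dusp16 probes and the main Ptpn7 probe were then highest on other arrays. The same array had the highest pan-leukocyte list mean (0.34, against -0.24 to 0.095 on the miR-126-/- arrays and -0.039 to -0.027 on the other miR-126+/+ arrays), the highest immediate early list mean (0.30) and the lowest adipocyte list mean (-1.14). The lymphocyte list mean there was 0.46, exceeded only on the fourth miR-126-/- array (1.12). The part of these differences in the members' values was not tested. Dusp8 went the other way and was lowest on that array. Over the 8 arrays the main probes of Dusp2 and Dusp6 correlated with r = 0.751, Dusp8 and Dusp10 with r = 0.695, and Dusp2 and Dusp8 with r = -0.639. These 3 are given as description, from 45 pairs on the same arrays.

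**Figure D4:**
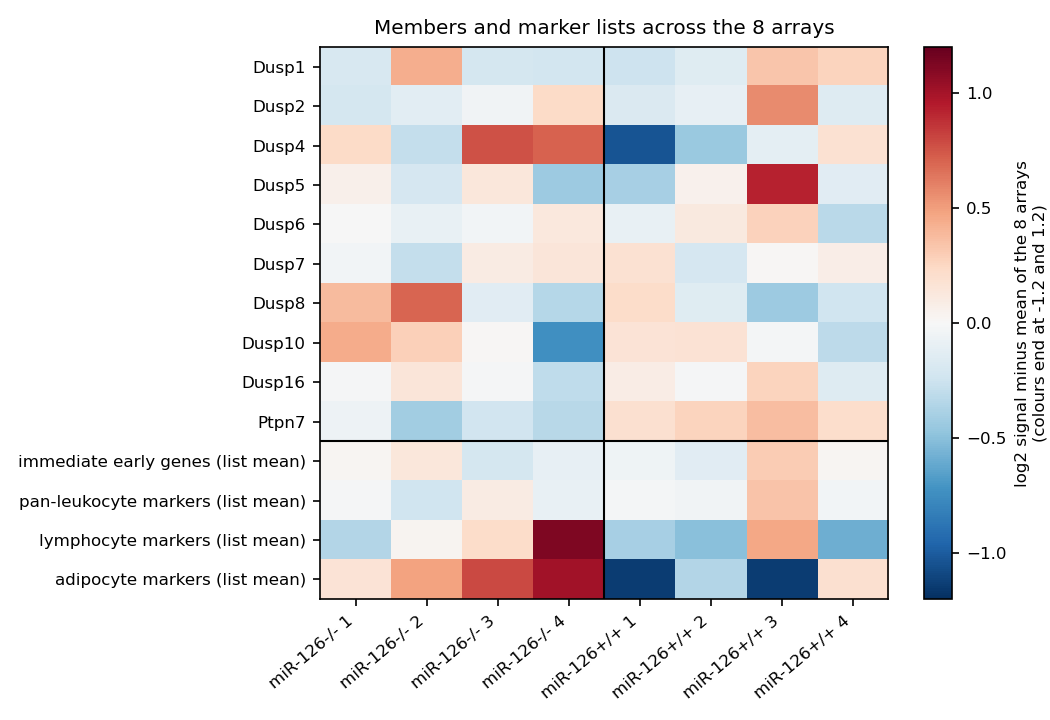
Log2 signal of the main probe of each of the 10 genes, and the mean of 4 gene lists, on each of the 8 arrays, minus the mean over the arrays (red, above, blue, below, colours end at -1.2 and 1.2). The third miR-126+/+ column is red for Dusp1, Dusp2, Dusp5, Dusp6, Dusp16 and Ptpn7 and for the immediate early, pan-leukocyte and lymphocyte lists. The adipocyte row is darkest blue there and on the first miR-126+/+ array.

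Since several phosphatases are induced with immediate early genes, each member's main probe was set against the mean of 21 immediate early genes over the 8 arrays. Dusp1 followed them most closely, with Pearson's r = 0.788 (exact permutation p = 0.0167, two-sided, adjusted p = 0.167 over 10 relations) and Spearman's rho = 0.643 (exact permutation p = 0.0962, adjusted p = 0.962). Without the arrays farthest from the median, the third of each genotype, r was 0.785, and after removal of each genotype's mean it was 0.780. Fos, a subunit of the AP-1 transcription factor, was highest on the same 3 arrays as Dusp1, with 2.11 on the second miR-126-/- array and 2.33 and 1.82 on the fourth and the third miR-126+/+ arrays. Egr1, a zinc finger factor induced by ERK, had 3.82 on the second miR-126-/- array and 4.01 on the fourth miR-126+/+ array but was lowest of all on the third miR-126+/+ array (2.75). None of the 10 relations passed the adjustment. Dusp16 had r = 0.624 and Dusp5 r = 0.568, and without the same 2 arrays these were 0.467 and 0.0888. Dusp2 had r = 0.511, which turned to -0.427 without them, so its relation rests on those arrays. Dusp8 had r = 0.0870, and 0.758 without the same arrays. Dusp6 and Ptpn7 had r = 0.236 and 0.263, which turned to -0.560 and -0.492 without them. The r of several members thus depended on these arrays, in both directions. Any part of the promoter motifs in these relations was not tested.

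**Figure D5:**
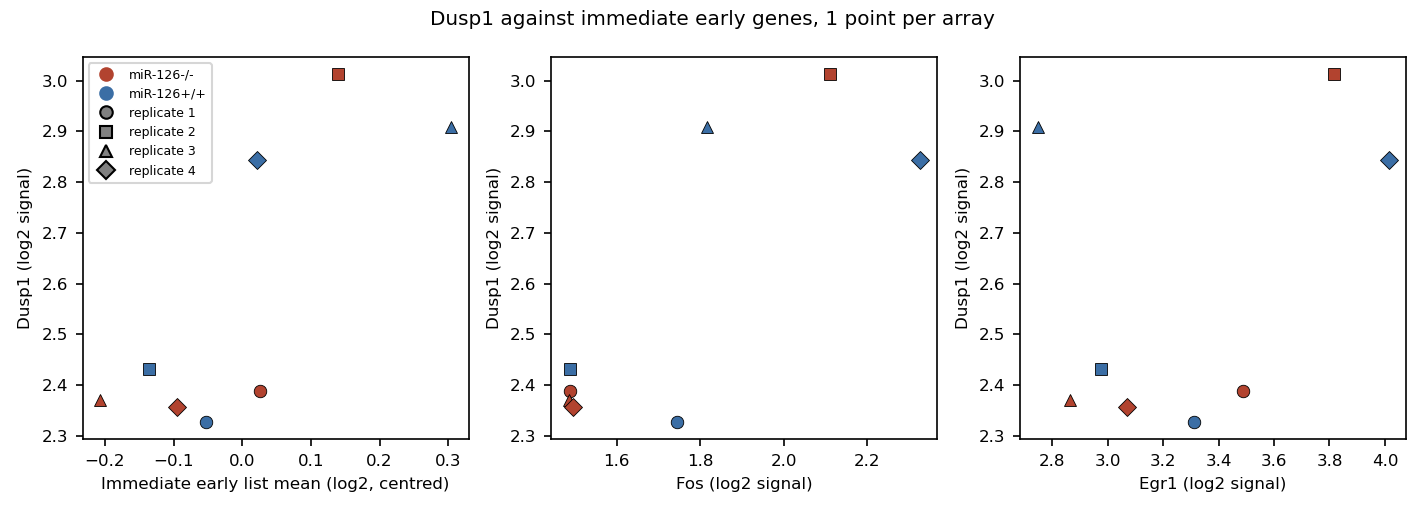
Log2 signal of Dusp1 against the mean of 21 immediate early genes (each gene centred over the arrays), Fos and Egr1, with 1 point per array (red, miR-126-/-, blue, miR-126+/+). The 3 arrays with Dusp1 above 2.8 are the second miR-126-/- array and the third and the fourth miR-126+/+ arrays. They are also highest in Fos, and the third miR-126+/+ array is lowest in Egr1.

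The genes that varied most like Dusp1 were Man2b2, a lysosomal mannosidase (r = 0.936), Myo1h, an unconventional myosin (r = 0.929), and Actg2, the smooth muscle gamma actin (r = 0.913). Their genotype differences were -0.017, 0.037 and -0.12, and 6 of 15069 genes correlated above 0.9.

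The other genes of the pathway, each by its brightest probe, did not pass in any of 4 lists (0 of 88 genes, against 0.0503% of 23840 genes with an adjusted p under 0.05). At an unadjusted p under 0.05, 6.29% of all genes were higher and 3.78% lower. Of 16 other phosphatases tested, 7 were above 0 and 9 below, with a median difference of -0.053, and 2 were lower at an unadjusted p under 0.05. These were Dusp9, a cytoplasmic ERK phosphatase, at -0.80 ± 0.26 (SE, limma adjusted p = 0.356), and Ptpn5, the brain-enriched relative of Ptpn7, at -1.43 ± 0.55 (SE, limma adjusted p = 0.445). Dusp9 was dim (mean log2 signal -4.31), marked as well above background in 3 of 4 miR-126-/- and 4 of 4 miR-126+/+ arteries. Ptpn5 had -1.97, -4.07, -3.25 and -3.95 in miR-126-/- arteries and -1.65, -0.93, -2.06 and -2.86 in miR-126+/+ arteries, with overlap through the first miR-126-/- array. Summed skeletal muscle markers were 163 on the first miR-126-/- array and 165 on the second miR-126+/+ array, each highest of its genotype in Ptpn5. On the other arrays they were 7.21 to 30.6. Summed nerve markers were 56.1 to 77.9 for miR-126-/- and 44.4 to 97.4 for miR-126+/+. The part of these tissues in the Ptpn5 values was not tested. Ptprr, the third phosphatase with the same interaction motif, differed by 0.54 ± 0.70 (SE). Dusp22, which acts in the JNK pathway, differed by 0.29 ± 0.13 (SE) at its brighter probe and by 0.040 ± 0.14 (SE) at the other.

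Of 29 kinases of the cascades, 13 were above 0 and 16 below, with a median of -0.070. Mapk3, which encodes an ERK kinase, differed by -0.078 ± 0.12 (SE) at its brighter probe and by -0.36 ± 0.18 (SE) at the other. Map2k6, a kinase that activates p38, was the 1 gene with an unadjusted p under 0.05. It had -0.72, -0.51, -0.55 and -0.84 in miR-126-/- arteries and -1.29, -1.10, -1.58 and -0.77 in miR-126+/+ arteries, a difference of 0.53 ± 0.18 (SE, limma adjusted p = 0.365). Only the fourth miR-126+/+ array overlapped the miR-126-/- range. Mapk4, an atypical MAP kinase, differed by -0.51 ± 0.23, and Rps6ka1, a kinase downstream of ERK, by -0.26 ± 0.14 (SE). Mapk4 was dim (mean log2 signal -4.46), marked as well above background in 3 of 4 arteries of each genotype. Its other probe was too dim to be tested.

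Of 22 targets and feedback genes of ERK, 5 were above 0 and 17 below, with a median of -0.10, where 48.9% of all genes were above 0. Ccnd1 and Areg were lower at an unadjusted p under 0.05 (3.78% of all genes were), and Areg entered the test only through its level in miR-126+/+ arteries. Areg, an EGF receptor ligand, had -4.64, -6.79, -5.38 and -5.32 in miR-126-/- arteries and -3.59, -1.50, -3.50 and -4.51 in miR-126+/+ arteries. It was marked as well above background in 1 of 4 miR-126-/- and 4 of 4 miR-126+/+ arteries, so that its level in miR-126-/- arteries is not resolved and no fold is given. It did not pass (limma adjusted p = 0.317). Ccnd1, which encodes cyclin D1, differed by -0.70 ± 0.30 (SE, limma adjusted p = 0.494). Etv4, an ETS factor induced by ERK, differed by -0.56 ± 0.25 (SE) at its brighter probe and by -0.76 ± 0.34 (SE) at the other. The feedback inhibitors Spry2 and Spry4 gave 0.41 ± 0.42 and -0.039 ± 0.20 (SE). Spry4 was dim, marked as well above background in 4 of 4 miR-126-/- and 3 of 4 miR-126+/+ arteries.

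Of 21 immediate early genes tested, 7 were above 0 and 14 below, with a median of -0.068, and none had an unadjusted p under 0.05. The AP-1 gene Junb (-0.45 ± 0.22, SE), Ier2 (-0.34 ± 0.17, SE) and Ier5 (-0.30 ± 0.21, SE) had the smallest p. Fos differed by -0.20 ± 0.21 (SE) and Egr1 by 0.047 ± 0.31 (SE).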

How the data were processed

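Total RNA of 8 injured carotid arteries, labelled with Cy3, was measured on Agilent mouse arrays, per the labels. The scanner signals are intensity values on a linear scale, background-subtracted and detrended per array by Agilent Feature Extraction 10.7.3.1, per the file headers. The authors' deposited table of values also holds intensity, not scaled between arrays, with a median log2 difference of 0 from the scanner signal on each array and column medians from 41.7 to 57.5, and was used as an alternative. Here, control and outlier spots were left out, spots of a probe were averaged, and log2 of the processed signal was taken minus the array's 75th percentile, with no pseudocount. Probes that stood well above background on 3 or more of a genotype's 4 arrays were tested (32494 of 55681). Probe positions are those of the files, on mm9.

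Genotypes were compared probe by probe with lmFit and eBayes of limma 3.58.1 (R 4.3.3, no covariate, 6 residual degrees of freedom), with Benjamini-Hochberg adjustment over all probes tested. Pairs of probes were compared by exact permutation over the 70 arrangements of the arrays. Python 3.11.15 with scipy 1.17.1 and matplotlib 3.10.9 served for permutations and figures, and the fit was tested on simulated data. The brightest probe of a gene is called its main probe. From each pathway list the 3 genes with the smallest p were named, with a few fixed genes of the pathway, and for Dusp1 and Ptpn7 the 3 genes most alike. Some genes that this rule names are not reported here. Gene lists count the brightest tested probe of a gene. Ptprc and Cd3e were named after their values were seen. The members and lists were chosen with earlier results of these data known. The alternatives changed the background correction, the scaling, the filter, the source of values, the probe summary, the spread model, the block and the arrays. One more left out a dim area of the fourth miR-126-/- array (grid rows 55 to 100, columns 56 to 70). No member spot lay in that area. The labels say that 4 animals per group were used, and whether the arteries were processed separately throughout is not given in the sources used here. The number of arrays limits the precision.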

Additional observations from a re-analysis of the deposited data

Results flagged for a closer look

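Of the 24 groups of 4 arrays examined (12 probes in 2 genotypes), 2 held a sample far from the other 3, where chance gives about 1 in 20. Dusp1 was 3.01 on array miR-126-/- 2, while the other miR-126-/- arrays lay between 2.36 and 2.39. Dusp2 was 2.75 on array miR-126+/+ 3, while the other miR-126+/+ arrays lay between 2.01 and 2.07. Both values are log2 signals over the array's 75th percentile.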

How the results depend on the processing

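No member probe passed the adjusted threshold in limma under any of the 20 alternatives, and 0 to 2 member probes had an unadjusted p under 0.05. The filters, the brightest probe per gene, the intensity trend, the replicate block and leaving out the dim area keep a member's estimate as it is by construction. Under the others the main Ptpn7 probe by itself ran from -0.63 to -0.47. Its limma adjusted p over all alternatives that keep it apart was 0.0744 to 0.371. With the gene's 2 probes averaged at equal weight, the dim one included, the difference was -0.20 (limma adjusted p = 0.830). Dusp4 ran from 0.48 to 0.92 (limma adjusted p 0.310 to 0.762). None of these changed direction, and Dusp8 and the main Dusp16 probe did not turn either. The count of probes called over the array, 13, became 39 with normexp, 7 with probes above background on all 8 arrays, 27 with the brightest probe per gene, 8 with an intensity trend and 40 with array weights. It was 2, 0, 3 and 11 without miR-126-/- arrays 1 to 4 and 7, 3, 12 and 52 without miR-126+/+ arrays 1 to 4; at 0, 2515 had an unadjusted p under 0.05. Small differences turned. With normexp, Dusp10 was -0.089, Dusp1 0.068 and the second Ptpn7 probe -0.061, and the Dusp16 probes differed by -0.17 (exact permutation, adjusted p = 0.343). Quantile normalization gave -0.0043 for Dusp10 and -0.0060 for Dusp6, the 75th percentile of probes detected on all arrays -0.00011 for Dusp10, and array weights 0.058 for Dusp1 and 0.0019 for Dusp2. With each array left out in turn, differences ran from -0.14 to 0.25 for Dusp10, -0.10 to 0.0996 for Dusp6, -0.089 to 0.54 for the second Ptpn7 probe, -0.11 to 0.051 for Dusp7, -0.16 to 0.11 for Dusp2, -0.22 to 0.013 for the second Dusp16 probe and -0.39 to 0.050 for Dusp5. The cause was not tested.

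Arrays with the same replicate number lay in the same slide column. Over all probes tested, the deviations of same-numbered arrays correlated with 0.175, -0.286, -0.042 and -0.000644. These values gave no sign that the numbers pair the arrays, but they cannot exclude it. With the replicate block 0 probes were called by limma, 2882 had an unadjusted p under 0.05, and the main Ptpn7 probe had limma adjusted p = 0.327; the block cannot move the estimate of -0.52. With 4 arrays per genotype, differences within the intervals given could not be resolved.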
